A study of Mus musculus with 5 samples.

Results

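The regions described here are the introns of genes whose promoters carried CpG methylation, in mouse embryonic stem cells and germ cells. A gene was taken when its intron entry and its promoter entry were listed in all 5 libraries and the promoter level averaged 30% or more over them. This gave 1936 introns, 13.6% of the 14201 genes with both entries and a subset of the 19966 introns listed in all 5 libraries. The genes were thus chosen by the measured promoter levels, so the height of the promoter is a description and not a result; intron values took no part in the choice. The lists of comparison were the introns of 10406 genes with a promoter mean under 10% (genes with unmethylated promoters) and of the 1859 genes between these limits.

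The assay was reduced representation bisulfite sequencing, in which DNA is cut with MspI at CCGG and the CpG-rich fragments are read after bisulfite conversion. All cells were of the C57BL6 strain, and each of the 5 groups had 1 library. Female ESC are a female embryonic stem cell line with both parental genomes, and pESC are a parthenogenetic line, made from an egg without a sperm genome; both were grown on feeder cells in serum and LIF. ESC-PGCLC and pESC-PGCLC are primordial germ cell-like cells induced from the respective line, through 46 h as epiblast-like cells with activin A and bFGF and 4 days with BMP4, LIF, SCF and EGF, then sorted for CD61 and SSEA1 together. PGC are primordial germ cells taken with SSEA1 beads from fetal gonads at E12.5; the sources used here give neither their sex nor the purity after the bead sort. Each line is a single line, and with 1 library in a group no difference below has a replicate error or a test: each compares libraries, not conditions. Read depth is unknown, because the deposited values are levels without read counts, so small differences cannot be told from counting error.

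CpG methylation at a promoter is classically linked to a silent gene, whereas methylation inside a gene body is common in transcribed genes as well. Promoters with dense CpG islands are mostly free of it, and the exceptions include germline genes, kept silent in somatic cells, and imprinted genes, where only the copy from 1 parent is methylated. Primordial germ cells are known for losing most of their DNA methylation during fetal life, and germ cell-like cells made in culture follow part of that course. A parthenogenetic line carries maternal genomes only, so imprints of maternal origin stand on both copies.

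The deposited gene entries carry Ensembl gene IDs without coordinates or symbols, and no reference used here paired them with symbols. Some could be placed, because their level was the same, to 9 decimals in all 5 libraries, as that of a CpG island or island shore with coordinates. Of all genes, 1684 were placed in this way; 132 of them were placed by more than 1 position, and all 132 had their positions on 1 chromosome, at most 47459 bp apart. Among the introns described here 116 genes were placed, 7 of them on chromosome X, and 45 received a symbol from the single RefSeq gene that starts within 500 bp and has the region on its upstream side. These names rest on position, and which of them are printed was decided after values had been seen. Placed genes are no fair sample: an intron mean under 10% was found in 37 of the 116 (31.9%), against 8.63% of all 1936.

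The stretches before the starts of 4 such genes are shown because they cover the 3 patterns described below: promoter and intron both methylated (Tdrd1, Tdrd12), a methylated promoter over an unmethylated intron (Timm13), and a promoter that was low in both biparental cultures and high in both parthenogenetic cultures and PGC, over an intron that was not (the island of Peg3 and Usp29). Each run is the 250 bases before the RefSeq start (GRCm38.p6), 5′ to 3′ on the strand of the gene, with CpG dinucleotides in capitals. The positions are chr19:56825959-56826208 (plus strand) for Tdrd1, chr7:35537745-35537994 (minus strand) for Tdrd12, chr10:80900970-80901219 (minus strand) for Timm13 and chr7:6730333-6730582 (plus strand) for Usp29.
Tdrd1: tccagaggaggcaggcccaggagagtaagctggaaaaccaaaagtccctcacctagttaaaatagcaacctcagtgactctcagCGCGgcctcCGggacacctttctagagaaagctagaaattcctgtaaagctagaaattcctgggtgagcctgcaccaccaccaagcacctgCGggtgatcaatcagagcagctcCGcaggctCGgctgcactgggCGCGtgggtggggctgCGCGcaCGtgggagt
Tdrd12: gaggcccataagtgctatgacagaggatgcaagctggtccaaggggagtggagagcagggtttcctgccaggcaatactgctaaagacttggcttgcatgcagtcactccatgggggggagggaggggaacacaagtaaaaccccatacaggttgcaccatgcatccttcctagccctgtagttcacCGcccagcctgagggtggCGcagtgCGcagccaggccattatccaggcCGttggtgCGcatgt
Timm13: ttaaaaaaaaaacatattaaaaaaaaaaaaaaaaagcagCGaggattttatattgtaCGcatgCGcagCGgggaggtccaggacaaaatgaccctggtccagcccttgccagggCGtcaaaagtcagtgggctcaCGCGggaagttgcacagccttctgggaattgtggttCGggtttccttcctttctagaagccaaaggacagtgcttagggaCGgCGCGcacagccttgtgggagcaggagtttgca
Usp29: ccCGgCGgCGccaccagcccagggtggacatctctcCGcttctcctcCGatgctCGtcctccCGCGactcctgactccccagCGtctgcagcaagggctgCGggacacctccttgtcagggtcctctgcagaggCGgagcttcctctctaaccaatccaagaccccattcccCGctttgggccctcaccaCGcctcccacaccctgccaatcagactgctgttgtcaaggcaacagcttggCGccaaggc
The Tdrd1 stretch holds 11 CpGs, with 197 of its 250 bases inside the shore that shared the promoter level; Tdrd12 has 5 CpGs and 206 bases, Timm13 11 CpGs and 216 bases. The Usp29 stretch holds 14 CpGs, and 66 of its bases lie in the island. CCGG, the MspI site (a palindrome, so the same on both strands, with its CG counted among the CpGs), occurs once in the Tdrd1 and in the Usp29 stretch and in neither of the others. Over the 45 placed genes these windows held a median of 14 CpGs (1 to 43), and 44.4% held CCGG. Over all 32851 RefSeq windows of the same length the median was 6 CpGs and 47.1% held CCGG. The placed genes were found through islands and shores, which selects CpG-rich starts.

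Introns of genes with methylated promoters were themselves methylated, to a level between that of their promoters and that of other introns. Female ESC had a mean intron level of 43.2%, pESC of 39.6%, ESC-PGCLC of 38.0%, pESC-PGCLC of 35.8% and PGC of 33.5%. The median ran in the same order, from 46.3% (quartiles 30.6% and 57.7%) in female ESC to 34.9% (23.7% and 44.0%) in PGC. The promoters of the same genes averaged 53.6%, 48.4%, 46.8%, 43.9% and 40.7% in the same order of libraries. Introns of genes with unmethylated promoters averaged 20.4%, 20.0%, 18.6%, 17.8% and 16.8%, with medians between 12.1% and 14.7%. All introns together averaged 29.6% in female ESC and 23.7% in PGC.

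**Figure D1:**
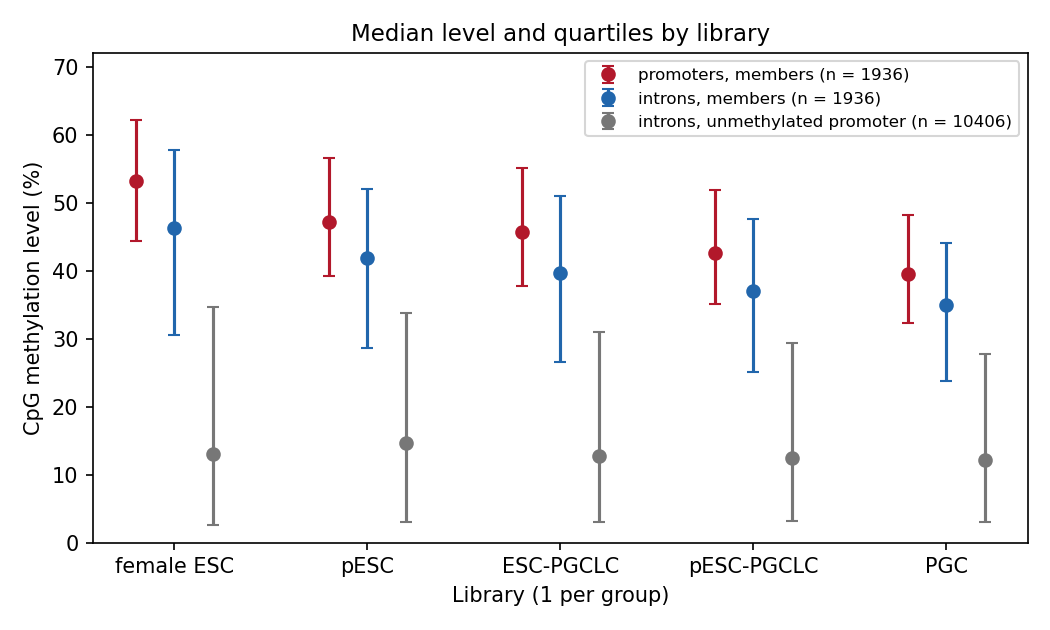
Median CpG methylation level (%, points) with lower and upper quartiles (bars) in each of the 5 libraries, for the promoters and introns of the 1936 genes and for the introns of 10406 genes with unmethylated promoters. The introns of genes with methylated promoters have medians from 46.3% in female ESC to 34.9% in PGC, while those of genes with unmethylated promoters lie between 12.1% and 14.7%.

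The other gene entries of these genes split by their place in the gene. Exons, listed in all libraries for 1485 of the genes, averaged 41.9% in female ESC and 32.3% in PGC, near the introns. The 3′ UTRs of 428 genes averaged 46.0% and 36.0%. The 5′ UTRs, which lie nearest to the start and were listed for 622 genes, had medians of only 3.97% in female ESC and 3.75% in PGC, although their means were 20.1% and 14.9%. The low median includes genes with introns under 30%, and the 5′ UTR level differed by intron level, as given for the intron classes below. In genes with unmethylated promoters the 5′ UTR medians were 1.50% in female ESC and 1.44% in PGC.

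Having a methylated promoter went with having no intron entry at all. Of 4630 promoters at 30% or more, 1936 (41.8%) had an intron listed in all libraries, 94 had one in some libraries and 2600 had none. Of 13188 promoters under 10%, 78.9% had an intron listed in all libraries. The 1936 are therefore the genes with both entries listed in all libraries, and not all genes with methylated promoters. Whether a gene without an intron entry has no intron or was not reached by the assay was not tested.

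The intron level increased with the promoter level of the same gene in every step, also below the limit that chose the genes. At promoters under 2% the median intron was at 9.91% (n = 5659), and 50.2% of the introns were under 10%. At promoters of 20% to 30% it was 29.8% (n = 725), with 13.8% of introns under 10%. Just past the limit, at 30% to 40%, it was 34.6% (n = 617), at 50% to 60% it was 43.9% (n = 445), and at 70% or more 51.6% (n = 50), with 4.00% of introns under 10%. There was no jump at 30%: the 5 genes just outside the limit, with promoter means from 29.91% to 29.97%, had intron means of 32.5%, 30.8%, 25.1%, 36.9% and 77.8%. The 5 just inside, from 30.01% to 30.07%, had 50.3%, 42.8%, 29.5%, 24.5% and 33.8%.

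**Figure D2:**
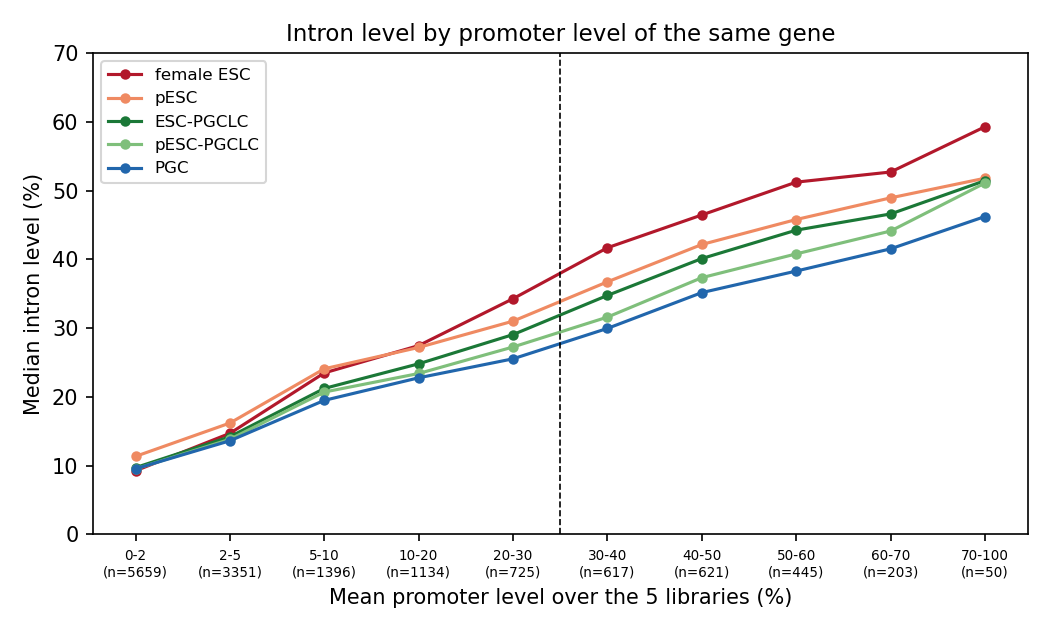
Median intron level (%) of the 14201 genes with both entries, in bins of the mean promoter level over the 5 libraries (%), with 1 line per library and the number of genes under each bin; the dashed line marks the 30% limit. The lines climb from about 9.26% to 11.4% at promoters under 2% to between 46.2% (PGC) and 59.3% (female ESC) at 70% or more, with no step at the limit.

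Gene by gene the link was loose. Spearman's rho between intron and promoter level across the 1936 genes was 0.247 for female ESC, 0.235 for pESC, 0.277 for ESC-PGCLC, 0.235 for pESC-PGCLC and 0.253 for PGC. Across all 14201 genes it was between 0.347 (PGC) and 0.363 (female ESC). These are descriptions across genes, which are not independent replicates; both values of a gene come from 1 library, and the promoter levels of the 1936 genes span a narrower range than those of all genes.

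Within a gene the intron was usually below its promoter. It was lower in 64.5% of the genes in female ESC and in between 63.7% and 64.4% in the other libraries. The median difference, intron minus promoter, was -6.87 percentage points for female ESC, -5.61 for pESC, -5.69 for ESC-PGCLC, -5.26 for pESC-PGCLC and -4.98 for PGC. The genes were chosen for high promoters, which by itself sets the promoter above a value that was not selected, so this difference is given without a reading. The intron was below the promoter in all 5 libraries in 1011 genes and above it in all 5 in 406. A further 468 were mixed: the intron changed sides, or it equalled the promoter in some libraries but not in all. In 901 genes (46.5%) the mean difference was within 10 points; in 258 the intron was more than 30 points lower, and in 12 more than 30 points higher.

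In the remaining 51 genes the intron and promoter entries held the same value in all 5 libraries. That is 2.63% of the 1936, against 0.430% of the genes between the limits and 0.231% of the genes with unmethylated promoters. In these genes the intron entry is therefore no separate measurement. Retrotransposon entries showed the same kind of identity: 30 introns (1.55%) equalled a single repeat entry, 15 of them LINE/L1, 12 LTR and 3 SINE. Among genes with unmethylated promoters 0.317% of introns did so. Of the promoters, 55 (2.84%) equalled a repeat entry, 29 of them LINE and 20 LTR, against 0.0961% in genes with unmethylated promoters. LINE/L1 and LTR elements are transposons that mouse cells keep methylated.

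The 1936 introns were not of 1 kind. By their mean over the 5 libraries, 167 (8.63%) were under 10%, 390 (20.1%) were from 10% to under 30%, 891 (46.0%) from 30% to under 50% and 488 (25.2%) at 50% or more. The promoters of these classes had medians of 43.9%, 42.8%, 44.0% and 51.3%, so the lower 3 classes hardly differed in promoter level. The exons did differ: their median was 8.41% (n = 134) where the intron was under 10% and 51.3% (n = 311) where it was 50% or more. The 5′ UTR median was 2.10% (n = 76) in the lowest class, 2.46% (n = 156) and 6.75% (n = 301) in the middle ones and 30.8% (n = 89) in the highest. In the lowest class 92.1% of the 5′ UTRs were under 10%, and in the highest 41.6% were.

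Timm13, which encodes a chaperone of mitochondrial protein import, is an example of the lowest class. Its intron level was 1.63% for female ESC, 1.77% for pESC, 1.38% for ESC-PGCLC, 2.01% for pESC-PGCLC and 1.41% for PGC. Its promoter entry, on the shore at chromosome 10, 80901004 to 80903005 (mm10), had 50.9%, 35.1%, 33.2%, 39.6% and 32.0%. All 5 introns were thus far below the lowest promoter value. Ddx1, an RNA helicase gene placed at chromosome 12, 13249277 to 13251278, had intron levels of 0.623%, 0.758%, 0.926%, 1.04% and 0.561% and promoter levels of 52.2%, 44.1%, 44.7%, 35.8% and 35.3%. Dusp23, a phosphatase gene (chromosome 1, 172633129 to 172635130), had introns from 1.02% to 2.28% and promoters from 39.4% to 46.4%. Cyba, which encodes a membrane subunit of NADPH oxidase (chromosome 8, 122432969 to 122434970), had introns from 4.91% to 7.75% under promoters from 59.2% to 67.5%. Srp9, a component of the signal recognition particle (chromosome 1, 182122653 to 182124653), is a near case: its intron had 10.4% in female ESC and 15.4% in PGC, its promoter 58.6% and 56.6%.

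Slc35g1, a solute carrier gene, could be placed by 3 of its entries and so shows the order of levels along a gene. Its promoter was the shore at chromosome 19, 38393899 to 38395899, its exon the adjoining island at 38395900 to 38396354 and its intron the shore on the far side, at 38396354 to 38398355. The promoter shore had 56.7%, 37.4%, 45.5%, 36.9% and 28.9% (female ESC, pESC, ESC-PGCLC, pESC-PGCLC, PGC). The exon island had 1.25%, 0.846%, 1.71%, 1.67% and 1.28% in the same libraries. The intron shore had 10.04%, 4.40%, 8.28%, 7.72% and 6.63%. The shores on either side of 1 island thus differed by 22.2 points or more in every library. Here the promoter entry was a methylated shore before the island and not the island at the start itself.

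The placed genes of the germline list had a methylated intron beside the methylated promoter. Tdrd1 and Tdrd12 encode Tudor-domain proteins of the piRNA pathway, which silences transposons in germ cells, and Fkbp6 a co-chaperone of the same pathway. They were the 3 placed genes out of 67 symbols listed, so the list was seen only in a small part. Over the libraries in the order used above, the Tdrd1 intron had 67.0%, 62.0%, 57.6%, 56.3% and 48.5%. Its promoter (chromosome 19, 56824155 to 56826155, 54 bp from the start) had 51.4%, 49.0%, 45.1%, 43.0% and 40.5%, so in this gene the intron was the higher of the pair in each library. The Tdrd12 intron had 67.1%, 59.2%, 59.3%, 47.9% and 55.8%, next to promoter levels of 68.1%, 56.8%, 56.8%, 44.2% and 51.8% (chromosome 7, 35537789 to 35539790). In Tdrd12 pESC-PGCLC and not PGC was the lowest library, at both places. The Fkbp6 intron had 41.7%, 40.6%, 44.8%, 47.1% and 31.1%, and its promoter (chromosome 5, 135350155 to 135352156) 51.9%, 54.0%, 49.0%, 41.3% and 41.7%. The intron of Fkbp6 was highest in pESC-PGCLC and lowest in PGC, while its promoter was lowest in these libraries, at nearly equal levels of 41.3% and 41.7%.

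Other placed genes with a methylated intron differed in how closely both places moved together. Ezhip encodes an inhibitor of the histone methyltransferase PRC2 and lies on chromosome X (6083368 to 6085369): its intron had 67.2%, 50.2%, 58.3%, 39.6% and 40.6%, its promoter 54.1%, 45.6%, 43.8%, 37.3% and 37.2%. Cyp27a1, a sterol hydroxylase of bile acid synthesis (chromosome 1, 74711617 to 74713617), had intron levels of 69.7%, 57.8%, 54.8%, 53.3% and 48.5% and promoter levels of 68.8%, 64.6%, 55.5%, 60.8% and 48.6%. In both genes female ESC was the highest library at both places. Prokr1, a prokineticin receptor gene (chromosome 6, 87590802 to 87592803), differed: its intron was highest in ESC-PGCLC (64.5%) and stood at 59.5% in female ESC and 49.5% in PGC, while its promoter was highest in female ESC (57.9%). Bard1, whose product pairs with the breast cancer protein Brca1 in DNA repair (chromosome 1, 71103220 to 71105221), had a flat intron, from 34.6% in female ESC to 39.3% in pESC, beside a promoter at 75.8% in female ESC and 62.5% in PGC. Selenoi, a phospholipid synthesis gene (chromosome 5, 30230463 to 30232463), had a promoter from 79.1% in female ESC to 40.9% in PGC and an intron of 33.0% and 32.3% in these libraries.

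Taf9b, a gene of the general transcription machinery (chromosome X, 106219884 to 106221885), had intron levels of 35.3% for female ESC and 22.9% for PGC, below promoter levels of 66.2% and 47.5%. Tbx21, a transcription factor gene of T cells (chromosome 11, 97115439 to 97117440), had 27.2% and 20.7% in the intron and 45.4% and 21.2% in the promoter. AA467197 (chromosome 2, 122635737 to 122637737) had 44.4% in female ESC at both places, but its intron was at 15.5%, 10.7%, 10.4% and 13.5% in pESC, ESC-PGCLC, pESC-PGCLC and PGC while its promoter kept 38.1%, 34.2%, 29.3% and 29.9%. In female ESC both AA467197 entries held the same value, so the intron entry may be no separate measurement there. The distance of the other 4 libraries from female ESC at this intron is therefore given without a reading. No placed gene was on the lists of DNA methylation machinery, pluripotency and germ cell specification, paternally methylated imprinted genes or liver genes (16, 21, 9 and 18 symbols), so those lists have no value here.

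**Figure D3:**
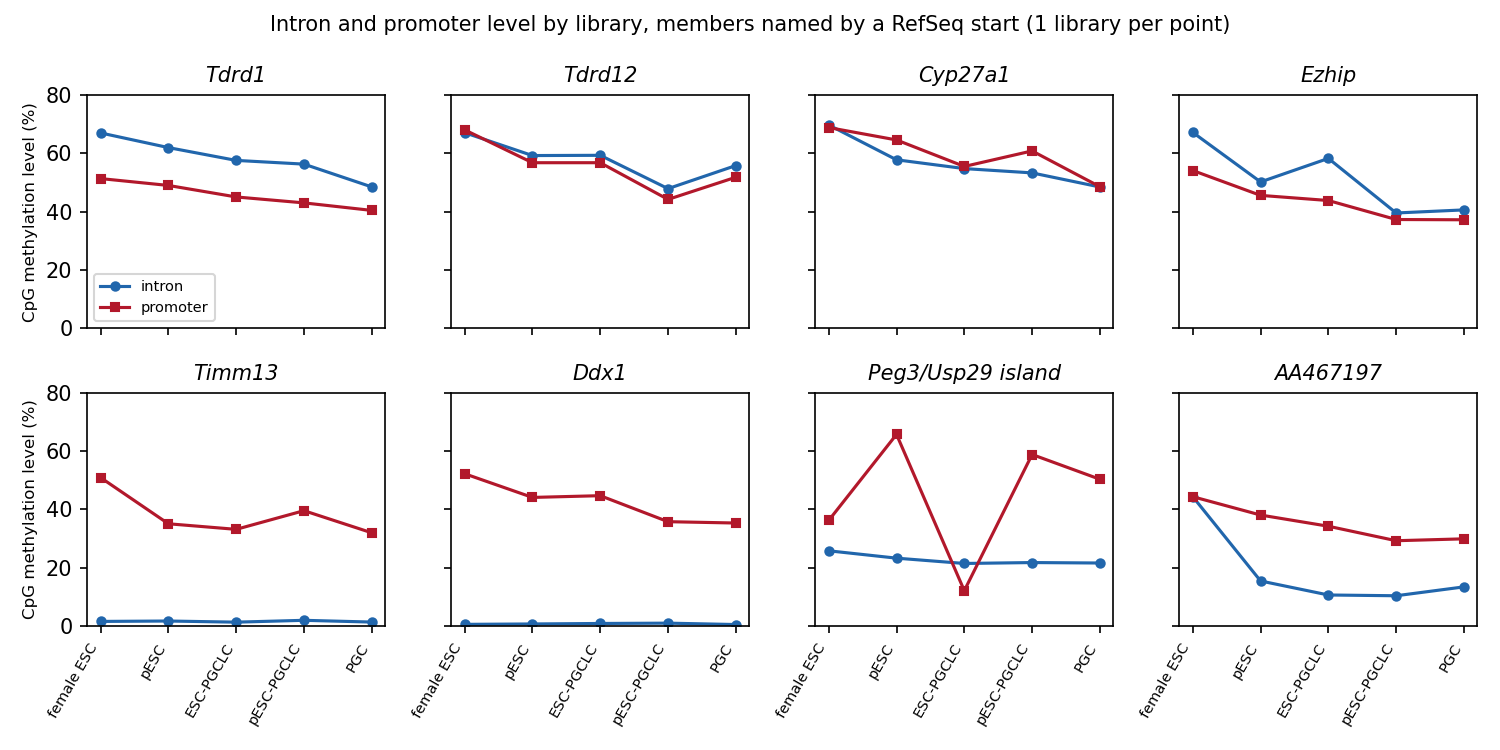
Intron level (circles) and promoter level (squares), in % CpG methylation, in each of the 5 libraries for 8 genes placed by position. In Tdrd1, Tdrd12, Cyp27a1 and Ezhip both lines lie above 37%, and in Timm13 and Ddx1 the intron stays under 2.1% in every library. At the Peg3 and Usp29 island the promoter ranges from 12.2% to 65.7% over a flat intron. At AA467197 the intron is at 44.4% only in female ESC, where the promoter entry holds the same value.

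The order of the library means given above was counted intron by intron. The full order, female ESC above pESC, ESC-PGCLC, pESC-PGCLC and PGC, was seen in 587 introns (30.3%), in 26.5% of the promoters of the same genes, in 15.0% of introns of genes with unmethylated promoters and in 20.2% of all introns. Female ESC was the highest library in 72.3% and PGC the lowest in 67.5% of the 1936 introns. In genes with unmethylated promoters these shares were 39.3% and 45.8%. The order was taken from the means of the 1936 introns, although the means of genes with unmethylated promoters ran in the same order. These shares are not matched for intron level. Of the 10406 introns of genes with unmethylated promoters, 4662 had a mean under 10%, where libraries hardly differed. The shares are therefore given without a reading. Counted by level, introns at 50% or more numbered 820 for female ESC, 572 for pESC, 524 for ESC-PGCLC, 389 for pESC-PGCLC and 257 for PGC. Introns under 10% hardly changed in number, between 157 (pESC) and 175 (ESC-PGCLC), and 131 were under 10% in all 5.

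The share of the female ESC mean that each library kept was alike at both places of these genes. In PGC the introns kept 77.5% and the promoters 76.0%; in pESC-PGCLC 82.9% and 82.1%, in ESC-PGCLC 87.9% and 87.5%, and in pESC 91.5% and 90.5%. Introns of the genes between the limits were close to this, at 78.7% in PGC, 83.8% in pESC-PGCLC, 88.7% in ESC-PGCLC and 93.9% in pESC. Introns of genes with unmethylated promoters kept 82.2%, 87.2%, 91.0% and 97.9% in the same order. Non-CpG methylation of the same introns, which holds both true non-CpG methylation and unconverted bases, averaged between 0.608% (pESC) and 0.768% (ESC-PGCLC) in the CHH context (n = 1932).

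PGC against female ESC was the widest of the 7 comparisons. The median intron difference was -10.7 points (quartiles -14.6 and -5.09), with 89.2% of introns lower in PGC, against -1.16 points in genes with unmethylated promoters and -4.84 in all introns. A difference of 25 points or more was called, with no test; 34 introns were that much lower, where 1.21% of all introns were, and 6 were higher, where 0.15% of all were. As shares of the 1936, the 34 and the 6 are 1.76% and 0.310%. With the median difference of all introns subtracted, 18 were lower and 6 higher. The promoters of the same genes had a median difference of -13.0 points, and 90 of them were called lower, where 1.19% of all promoters were; the promoter level chose the genes, so nothing is read from that count. The genes called lower at both places numbered 7. No share over all genes stands beside this count, so nothing is read from it. Pearson's r between the intron and promoter differences across the 1936 genes was 0.212, a description across genes whose differences come from the same pair of libraries.

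The larger differences went with the higher intron level. In bins of the mean intron level, introns at 30% to 40% had a median PGC minus female ESC difference of -11.4 points in genes with methylated promoters (n = 419) and -8.68 in genes with unmethylated promoters (n = 1124). At 40% to 50% the medians were -12.6 (n = 472) and -12.5 (n = 967), and at 50% to 60% -14.0 (n = 334) and -13.4 (n = 477). Under 10% they were 0.2001 (n = 167) and 0.0407 (n = 4662). At like intron level the medians of these classes were thus 2.73 points apart at most, at 30% to 40%, compared with the 9.54 points between the medians of the classes as a whole. No error can be given for these medians.

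**Figure D4:**
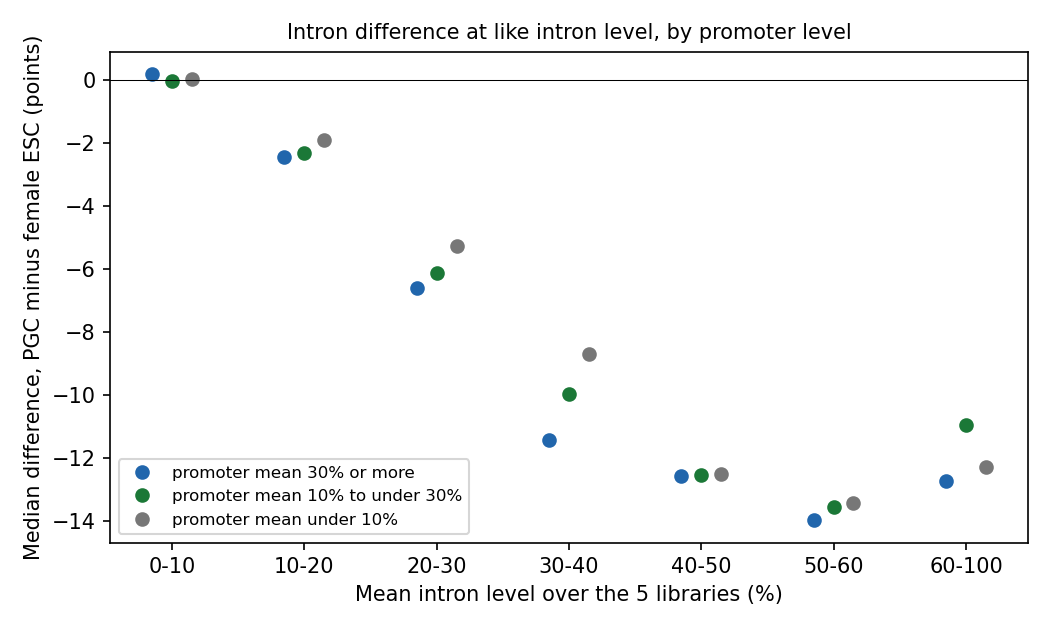
Median difference PGC minus female ESC (percentage points) of introns in bins of the mean intron level over the 5 libraries (%), for genes with promoter means of 30% or more, 10% to under 30% and under 10%. The 3 classes lie close together within each bin, from about 0 under 10% to between -13.4 and -14.0 at 50% to 60%, and are farthest apart at 30% to 40%.

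Germ cell-like induction from the biparental line gave a median of -5.46 points (ESC-PGCLC against female ESC; quartiles -8.32 and -1.83), with 86.4% of introns lower. All introns had -2.32 points, and genes with unmethylated promoters -0.641. At 25 points 11 introns were lower and 2 higher, where 0.456% and 0.19% of all introns were. Those are 0.568% and 0.103% of the 1936, near the background. Both higher introns were listed at exactly 0 in female ESC. With members at exactly 0 or 100% left out, 10 introns were lower and 0 higher. Induction from the parthenogenetic line (pESC-PGCLC against pESC) gave -3.83 points, with 84.7% of introns lower; 2 were called lower and 3 higher, where 0.13% and 0.0801% of all introns were. The intron level was lower after induction in both lines in 1464 genes (75.6%). In genes with unmethylated promoters 62.6% of introns were lower after biparental induction and 70.1% after parthenogenetic induction. Their share lower in both lines is not given here.

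The difference of the induction changes, biparental minus parthenogenetic, had a median of -1.36 points over the introns and -2.19 over their promoters, and -0.246 over all introns; it was negative in 63.4% of the introns. It reached 25 points below 0 in 13 introns and above 0 in 4, where 0.401% and 0.341% of all introns did. These changes share no library, but the female ESC library, which stood highest, enters only the first of them. The gene ENSMUSG00000104717 is such a case: its intron had 70% in female ESC against 27.5% (pESC), 26.3% (ESC-PGCLC), 20.1% (pESC-PGCLC) and 27.7% (PGC). Female ESC alone stood apart there, while its promoter had 55.9%, 44.4%, 37.8%, 38.0% and 31.4%.

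Against PGC, the induced cells had higher introns. ESC-PGCLC were above PGC by a median of 4.51 points, with 14.5% of introns lower, and pESC-PGCLC by 2.25 points, with 23.9% lower; both comparisons share the PGC library. All introns had 1.95 and 0.899 points. At 25 points 5 introns were higher and 5 lower in ESC-PGCLC, where 0.105% and 0.0451% of all introns were, and 2 were higher and 1 lower in pESC-PGCLC, where 0.0551% and 0.0351% were. The 5 introns lower in ESC-PGCLC than in PGC are among those described next, which were high in the parthenogenetic cells.

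The parthenogenetic line had slightly lower introns than the biparental line in most genes. The median of pESC minus female ESC was -3.86 points (quartiles -6.92 and -0.438), with 78.2% of introns lower; all introns had -0.910 and genes with unmethylated promoters -0.109. At 25 points 12 introns were lower and 6 higher in pESC, where 0.361% and 0.26% of all introns were. Those are 0.620% and 0.310% of the 1936, and the share of higher introns is near the background. Some of the higher introns hold the same entry, and another was listed at exactly 0 in female ESC. Between the induced cells, pESC-PGCLC minus ESC-PGCLC, the median was -2.04 points, with 74.6% lower. There 6 introns were called higher and 0 lower, where 0.0751% and 0.0851% of all introns were. The 6 are 0.310% of the 1936, and some of them hold the same entry. Of these 6 genes, 4 were called higher at the promoter as well. The promoter level chose the genes, so nothing is read from that count.

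The comparison of the stem cells and that of the induced cells share no library, so they can be set side by side. By 25 points, 4 introns, of which 2 hold the same entry, were higher in the parthenogenetic library of both, where 0.0401% of all introns were, and by 10 points 7 were, where 0.135% of all introns were. These are 4 of the 8 and 7 of the 27 introns of all genes that passed. Some of these genes had promoter levels close to each other in every library, as given below. Whether they are separate loci was not tested, so the counts may hold 1 locus more than once. By 10 points 21 introns were lower in both, where 0.611% of all were. Of the 7 higher genes, 5 were also 10 points or more higher at the promoter in both comparisons.

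ENSMUSG00000000948 was 1 of the 4 introns higher by 25 points in both. Its intron had 24.1% in female ESC and 11.7% in ESC-PGCLC, but 69.3% in pESC, 58.3% in pESC-PGCLC and 51.8% in PGC. Its promoter had 33.1% and 29.6% in the biparental libraries and 77.5%, 78.1% and 66.1% in the others, and its exon 35.0% and 20.4% against 76.4%, 76.8% and 70.8%. The libraries thus fell into the same sets at all 3 places: both biparental cultures low, the parthenogenetic cultures and PGC high. A second gene held the identical intron entry, with promoter levels of 33.2%, 77.3%, 29.1%, 77.9% and 66.4% (female ESC, pESC, ESC-PGCLC, pESC-PGCLC, PGC), so the intron measurement is 1 for both genes. Another gene had 31.6%, 71.9%, 24.9%, 70.4% and 59.6% in the intron and 34.4%, 82.7%, 32.0%, 83.6% and 70.4% in the promoter. A further gene had 10%, 50.5%, 8.81%, 37.7% and 65.0% in the intron and a smaller spread in the promoter, at 26.0%, 47.3%, 11.4%, 38.6% and 35.3%. Imprinted regions of maternal origin are known to be methylated in parthenogenetic cells, but the IDs of these genes were not paired with symbols, and whether they are imprinted was not tested.

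The remaining 3 of the 7 did not all share the pattern. A gene placed on chromosome X (169985180 to 169987181) had 24.5%, 38.6%, 16.7%, 35.3% and 44.1% in the intron and 25.5%, 46.8%, 11.3%, 38.2% and 36.3% in the promoter, while its exon was highest in female ESC, at 58.6%. Its promoter levels were close to those of the last gene described above. Another had 28.3%, 44.7%, 17.2%, 37.5% and 38.1% in the intron over a flat promoter, from 27.9% to 32.6%. In ENSMUSG00000079550 the intron was listed at 0 in female ESC and at 46.9%, 43.2%, 53.3% and 37.3% in the other libraries, with a promoter from 38.1% to 46.8%. There only female ESC stood apart, and a level of exactly 0 without read counts has no known precision.

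**Figure D5:**
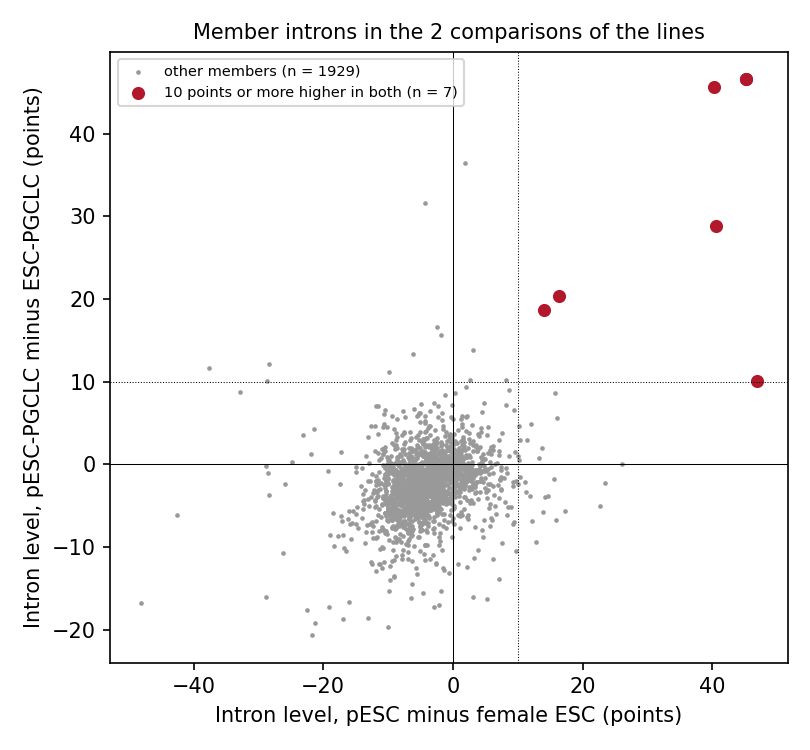
Intron difference between the parthenogenetic and the biparental library, in percentage points, for stem cells (x axis) and induced germ cell-like cells (y axis), 1 point per gene (n = 1936); dotted lines mark 10 points. The 7 introns past 10 points on both axes are drawn large and show as 6 points, because 2 genes share 1 entry.

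The island of Peg3 and Usp29, imprinted neighbours that start close together in opposite directions, showed the reverse arrangement. The promoter entry was the island at chromosome 7, 6730062 to 6730398, which lies 185 bp before the Usp29 start and inside the first part of Peg3, so the entry may belong to either gene. The promoter had 36.2% in female ESC and 12.2% in ESC-PGCLC, against 65.7% in pESC, 58.8% in pESC-PGCLC and 50.3% in PGC. The intron entry of the same gene had 25.8%, 23.3%, 21.5%, 21.8% and 21.6% (female ESC, pESC, ESC-PGCLC, pESC-PGCLC, PGC) and so did not show these sets of libraries. This was 1 of 4 genes whose promoter was 10 points or more higher in both parthenogenetic libraries while the intron was not. Among the 1936 genes 9 promoters met that mark in all. No share over all promoters stands beside these counts, and the promoter level chose the genes, so nothing is read from them.

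Each of the 12 introns lower in pESC by 25 points had its highest level in female ESC, a pattern that choosing introns on a high female ESC level favours. ENSMUSG00000115772 had 75% and 53.3% in the biparental libraries (female ESC, ESC-PGCLC) and 26.9%, 36.6% and 33.3% in pESC, pESC-PGCLC and PGC, over a promoter between 36.8% and 43.1%. Both biparental libraries were above the other 3 at this intron. Of the 12, 1 was in a gene whose promoter was also called lower, and there both entries held the same value in 4 of the 5 libraries. Of the 6 higher introns 3 had a promoter called higher. The promoter level chose the genes, so nothing is read from these counts.

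With the smaller mark of 10 points the introns exceeded the background in each comparison. In PGC against female ESC 1045 were lower and 19 higher, 54.96% of the 1936 together, where 32.2% of all introns passed. In ESC-PGCLC against female ESC 16.0% passed (background 10.7%), in pESC against female ESC 10.8% (7.79%) and in pESC-PGCLC against pESC 6.20% (4.87%). In ESC-PGCLC against PGC 10.8% passed (5.95%), in pESC-PGCLC against PGC 3.77% (2.26%) and in pESC-PGCLC against ESC-PGCLC 4.34% (2.5%). The balance of directions at 10 points differed from that at 25 points in several comparisons. In pESC-PGCLC against ESC-PGCLC 19 introns were higher and 65 lower, in pESC-PGCLC against pESC 13 and 107, and in ESC-PGCLC against PGC 197 and 13. In pESC against female ESC 32 were higher and 177 lower, in ESC-PGCLC against female ESC 16 and 293, and in pESC-PGCLC against PGC 62 and 11. The larger shares stand beside the higher mean level of these introns; in PGC against female ESC the size of the median difference grew with that level up to 50% to 60% in each promoter class.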

How the data were processed

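Reduced representation bisulfite libraries of 5 groups, 1 each, were used. Each deposited value is a fraction between 0 and 1, the methylation level of CpGs in a region as computed by the authors; levels are printed as percent, 100 times that fraction. Bismark 0.16.3, Bowtie2 and the build mm10 are named per the submitters' processing notes; their roles, trimming, coverage filters and the way regions were drawn were not given in the sources used here. No read counts accompany them, so depth, intervals and tests were not available.

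Entries listed in all 5 libraries were used, with 1 intron and 1 promoter entry per gene, in Python 3.11.15 with pandas 2.3.3, numpy 2.4.6, scipy 1.17.1 and matplotlib 3.10.9. A difference of 25 percentage points was called, with no test. The code that makes the call was checked on simulated levels, which gives no error rate for the call in these data. The members and lists were chosen with earlier results of these data known. Gene IDs were paired with 0 symbols, so by the rule for named genes at most 2 IDs per direction are printed; genes placed through identical levels of islands and shores are added to that rule, and all were chosen after values were seen. Island and shore coordinates are given as deposited, whose counting base is not stated. Fkbp6 stood on the germline and the maternally imprinted list and is described under the first. Alternatives were a promoter limit of 20% or 50%, a mark of 10 points, leaving out members with a level of exactly 0 or 100%, subtraction of the median difference of all introns, subtraction of the mean CHH level, and, chosen after seeing the data, leaving out members that share entries. A median or mean counted as kept within 1 point, and a count within 1.5 times.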

Additional observations from a re-analysis of the deposited data

Results flagged for a closer look

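The intron differences after induction pointed in opposite directions in the 2 lines for 6 of the genes named; none of these differences was tested, and each line has 1 library per state. In ENSMUSG00000115772 the intron was 21.7 points lower in ESC-PGCLC than in female ESC and 9.66 points higher in pESC-PGCLC than in pESC, and biparental minus parthenogenetic change was -31.3 points. At Selenoi the intron was 3.91 points higher after induction of the biparental line, and the parthenogenetic change was -12.5 points, which differ by 16.4 points. At Prokr1 the changes were 5.00 and -9.24 points, 14.2 points apart. At Bard1 they were 3.08 and -1.89 points, 4.98 points apart. At Slc35g1 they were -1.76 and 3.32 points, a difference of -5.09 points. At Timm13, whose intron was under 2.1% throughout, they were -0.249 and 0.241 points, a difference of -0.490 points.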

How the results depend on the processing

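Of 127 alternative values, 91 kept the main value within the stated margin, 36 moved and 0 reversed; for calls this compares higher and lower together. Leaving out the 9 members with a level of exactly 0 or 100%, leaving out the 61 that share entries (chosen after seeing the data) and subtracting the CHH level moved none of the values they were run on. With those 9 left out, however, the introns called higher in ESC-PGCLC against female ESC went from 2 to 0. The balance of directions did turn between marks: from 6 higher and 0 lower at 25 points to 19 and 65 at 10 points in pESC-PGCLC against ESC-PGCLC, from 3 and 2 to 13 and 107 in pESC-PGCLC against pESC, and from 5 and 5 to 197 and 13 in ESC-PGCLC against PGC. At a mark of 10 points the calls, higher and lower together, were 209 for pESC against female ESC, 309 for ESC-PGCLC against female ESC, 120 for pESC-PGCLC against pESC, 1064 for PGC against female ESC, 210 for ESC-PGCLC against PGC, 73 for pESC-PGCLC against PGC and 84 for pESC-PGCLC against ESC-PGCLC. With promoters of 50% or more (698 members) they were, at 25 points and in the same order, 6, 4, 3, 17, 6, 0 and 3, against 18, 13, 5, 40, 10, 3 and 6 in the main setting; fewer introns were counted. With the median difference of all introns subtracted, 3 were called for pESC-PGCLC against pESC and 24 (6 higher, 18 lower) for PGC against female ESC. The mean intron level in female ESC, pESC, ESC-PGCLC, pESC-PGCLC and PGC was 40.5%, 37.2%, 35.6%, 33.6% and 31.4% at a promoter limit of 20% (2661 members) and 47.8%, 43.9%, 42.5%, 40.1% and 37.7% at 50%. The median of intron minus promoter was -4.05, -3.20, -3.34, -2.85 and -2.63 points at 20% and -13.4, -14.3, -13.8, -13.6 and -11.9 points at 50%. Both limits change which genes enter.

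No paired analysis was possible because each group has 1 library; for the same reason no library was left out. The alternative with the lowest promoter entry of a gene was not run, since each gene has 1 such entry. Depth limits every value to an unknown degree, because no read counts accompany the levels. Cell type, line, culture and library preparation differ together between single libraries and cannot be told apart. Genes named by position were a small and CpG-rich part of the members.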
